A study of Mus musculus with 8 samples.

Results

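The insulin-like growth factor (IGF) system was followed here through 10 genes in muscle satellite cells: the ligands Igf1 and Igf2, the receptors Igf1r and Igf2r, and the binding proteins Igfbp2, Igfbp3, Igfbp4, Igfbp5, Igfbp6 and Igfbp7. They were taken by name, as every non-control probe of the array that carries one of these symbols, which gave 15 probes for 10 of the 21655 genes with a named probe. All 10 genes passed the filter on dim probes and were among the 13641 genes tested. Satellite cells are the stem cells that lie along muscle fibres and rebuild them after damage. They came from C57BL/6 male mice aged 3 months, by a sort that kept integrin alpha 7 and discarded cells with CD31, CD45, CD11b or Sca1. The 4 basal samples were from muscle in homeostasis, and the 4 injured samples were from muscle 3 days after injury with cardiotoxin, a snake venom toxin that destroys fibres. The authors' column names of both groups begin with WT, for wild type, and the labels name no transgene or engineered allele in either group. The labels call the samples biological replicates and do not state whether animals were pooled.

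IGF1 and IGF2 are small secreted hormones that bind the IGF1 receptor, a tyrosine kinase that signals growth and survival through the insulin receptor substrates, phosphoinositide 3-kinase and AKT. The IGF2 receptor, also the receptor that sorts mannose 6-phosphate tagged enzymes to lysosomes, takes up IGF2 and has it degraded. The IGF binding proteins hold the ligands outside cells and can lengthen their life, keep them from the receptor or bring them to a tissue, and IGF1 is known as a growth and repair factor of muscle.

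The start regions of 5 of the genes are shown as a description, and no test below uses them. Igf1, Igf2r and Igfbp4 were lower after injury, and Igfbp2 and Igfbp5 are next to each other on chromosome 1 with no gene between them in the RefSeq gene table, yet only Igfbp2 was called higher. Each sequence holds the 250 bases before the RefSeq start on the gene's own strand, from the mouse build GRCm38.p6. Capitals mark CANNTG, the general form of the E-box, and TATAAA, the core of a TATA box. The myogenic factors MyoD and Myf5 bind E-boxes, but the marked forms differ, and which factor binds any of them was not tested. CANNTG reads alike on both strands, and TATAAA was searched on the strand shown.
Igf1, chr10:87860861-87861110, plus strand: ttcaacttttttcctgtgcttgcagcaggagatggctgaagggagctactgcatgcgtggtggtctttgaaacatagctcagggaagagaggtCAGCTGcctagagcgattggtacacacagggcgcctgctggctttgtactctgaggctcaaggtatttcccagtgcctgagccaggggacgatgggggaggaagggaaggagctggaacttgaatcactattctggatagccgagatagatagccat
Igf2r, chr17:12769707-12769956, minus strand: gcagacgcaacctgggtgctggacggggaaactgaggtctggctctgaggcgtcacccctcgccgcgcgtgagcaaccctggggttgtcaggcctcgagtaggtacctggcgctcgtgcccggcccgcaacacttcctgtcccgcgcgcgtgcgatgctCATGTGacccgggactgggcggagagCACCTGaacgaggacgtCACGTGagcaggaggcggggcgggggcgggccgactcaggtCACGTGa
Igfbp4, chr11:99040994-99041243, plus strand: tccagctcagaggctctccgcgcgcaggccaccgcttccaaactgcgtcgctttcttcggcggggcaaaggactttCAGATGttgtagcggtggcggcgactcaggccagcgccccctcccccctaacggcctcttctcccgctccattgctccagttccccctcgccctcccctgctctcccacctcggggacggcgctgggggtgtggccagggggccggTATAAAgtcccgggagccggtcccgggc
Igfbp2, chr1:72824230-72824479, plus strand: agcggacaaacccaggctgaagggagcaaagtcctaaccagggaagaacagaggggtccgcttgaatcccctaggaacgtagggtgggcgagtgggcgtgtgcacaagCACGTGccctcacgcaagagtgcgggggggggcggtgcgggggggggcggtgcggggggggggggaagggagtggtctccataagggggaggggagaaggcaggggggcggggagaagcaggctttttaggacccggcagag
Igfbp5, chr1:72874866-72875115, minus strand: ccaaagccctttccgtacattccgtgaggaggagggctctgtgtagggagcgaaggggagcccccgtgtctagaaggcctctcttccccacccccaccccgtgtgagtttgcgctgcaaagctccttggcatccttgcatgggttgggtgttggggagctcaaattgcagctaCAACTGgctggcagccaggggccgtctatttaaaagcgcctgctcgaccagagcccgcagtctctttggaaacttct
The Igf2r window held 4 E-boxes, and the Igf1, Igfbp4, Igfbp2 and Igfbp5 windows held 1 each. A second start window of Igfbp2, not shown, also held 1 E-box, at position -55. That of Igf1, at position -157 from the start, was a CAGCTG, which is 1 form of the E-box. Igfbp4 also had a TATAAA, at position -28. Over 32851 windows of the same length, 66.2% held CANNTG, 13% CAGCTG and 7.59% TATAAA. The letters GTAAACA, the core that forkhead factors such as FOXO1 bind, were searched on both strands and were in none of the 14 windows of the 10 genes, against 3.17% of all windows. The GC content was 69.2% in the Igf2r and Igfbp4 windows, 67.2% in the Igfbp2 window shown and 56.4% in the other. It was 58.8% in that of Igfbp5 and 52.8% in that of Igf1, with a median over all windows of 52.4%. A match of letters is a description of the window and not evidence of binding.

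Values below are log2 processed signal minus the 75th percentile of the same array, so 0 is the level of that percentile, and differences are injured minus basal. Between 50.1% and 56.7% of the non-control spots of an array were well above background, none was saturated, and the 75th percentile was 104.2 to 132.3 intensity units. The number of arrays, 4 per group, limits the precision. The 4 basal arrays were on 1 slide and the 4 injured arrays on another, so slide and group cannot be told apart. Pax7, the defining satellite cell factor, was well above background on all arrays and fell by 2.95 (adjusted p 1.7e-05, limma), and the integrin alpha 7 gene Itga7 rose by 1.13 (3.7e-04), while the Myf5 probe was above background on no array. Of the 10 satellite cell markers, 9 were above background on each basal array and 8 on each injured one, with a summed signal of 250 to 340 and 115 to 145 times the array's 75th percentile. Of these markers, 9 were tested, 5 were called lower, 2 higher and 2 were not called. Chodl, which made up much of the basal sum, fell by 6.76, Sdc4 by 1.86 and Vcam1 by 0.75, while Myod1 rose by 0.77. Calcr was above background on no injured array and was at least 32.9-fold lower. Xist, the RNA of the inactive X chromosome, ranged from -4.97 to 3.85 on the basal arrays and was 1.72 on injured 1 and 6.37 to 6.57 on injured 2, 3 and 4, although all mice are labelled male. Markers of other cell types also differed among libraries. The summed signal of 11 endothelial markers was 75.6 and 64.3 on basal 1 and 2, 29.1 and 23.8 on basal 3 and 4, and 10.4 to 13.2 on the injured arrays. Of these markers, 9 were tested, 3 were called lower, 1 higher and 5 were not called. Most of the injured sum came from the probe of Kdr, which rose by 0.39. Tek fell by 4.69 and was higher on basal 3 and 4 (4.33 and 3.97) than on basal 1 and 2 (3.50 and 3.13). The summed signal of 9 pericyte and smooth muscle markers was 98.9 to 158 in basal and 20.7 to 34.1 in injured samples. Most of it came from the probe of Notch3, which fell by 2.61. All 9 were tested, 6 were called lower and 3 were not called, with Rgs5 and Pdgfrb above background on no injured array. That of 11 markers of fibro-adipogenic progenitors, the connective tissue progenitors of muscle, was 75.6 to 113 and 54.3 to 93.3. Of these, 8 were tested, 6 were called lower and 1 higher, with a median of -2.66. Dcn (4.21 in basal, with 1 of 4 injured arrays above background), Col3a1 (-2.74) and Gsn (-3.13) fell, Col1a2 rose by 1.92, and the defining Pdgfra was above background on no array. For 14 macrophage and leukocyte markers it was 475 to 543 and 496 to 587, nearly all from the probe of Itgam, which encodes the CD11b discarded in the sort and read 8.74 to 8.95 and 8.83 to 9.09. Of these markers Ptprc, Itgam, Csf1r, C1qb and Fcer1g were above background on all 8 arrays and Mrc1, Ccr2 and C1qc on none, and Tyrobp rose by 1.99 (adjusted p 0.0184, limma) and Csf1r fell by 0.30 (0.0406). For 9 mature myofibre markers the summed signal was 42.7 to 51.7 and 94.1 to 136, mostly from the probe of Atp2a1. Of the 5 tested, Atp2a1 (1.14) and Tnnt3 (2.47) were called higher, Mb (-1.55) and Pvalb (-1.02) lower, and Acta1 was not called. Tenocyte markers summed to 4.5 to 7.2 and 7.87 to 10.2, with nearly all of the injured sum from the probe of Scx. Of the 4 tenocyte markers tested, 3 were called lower and 1, Scx (1.36), higher, with a median of -0.96. Schwann cell markers summed to 7.39 to 29.6 and 6.43 to 8.33, with 3 of 4 tested called lower and 1 higher. The part of these differences in the results below was not tested, and results are also given without basal 1 and 2 and without injured 2, 3 and 4 where that changes them.

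After injury, 6 of the 10 genes were lower (Igf1, Igf1r, Igf2r, Igfbp4, Igfbp6 and Igfbp7), 1 was higher (Igfbp2), and 3 were not called (Igf2, Igfbp3 and Igfbp5). The call rule was an adjusted p under 0.05 in limma with Benjamini-Hochberg adjustment over all genes tested. Over those genes 60.1% were called, 35.4% higher and 24.7% lower, so 7 called of 10 is near the background when direction is ignored. The median difference of the 10 genes was -1.24, and that of all genes tested was 0.17 with quartiles of -0.51 and 0.85. The basal and injured values did not overlap for 7 of the 10 genes, against 57.1% of all genes tested. With whole populations on each array, fewer cells expressing a gene and less RNA per cell cannot be told apart.

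**Figure D1:**
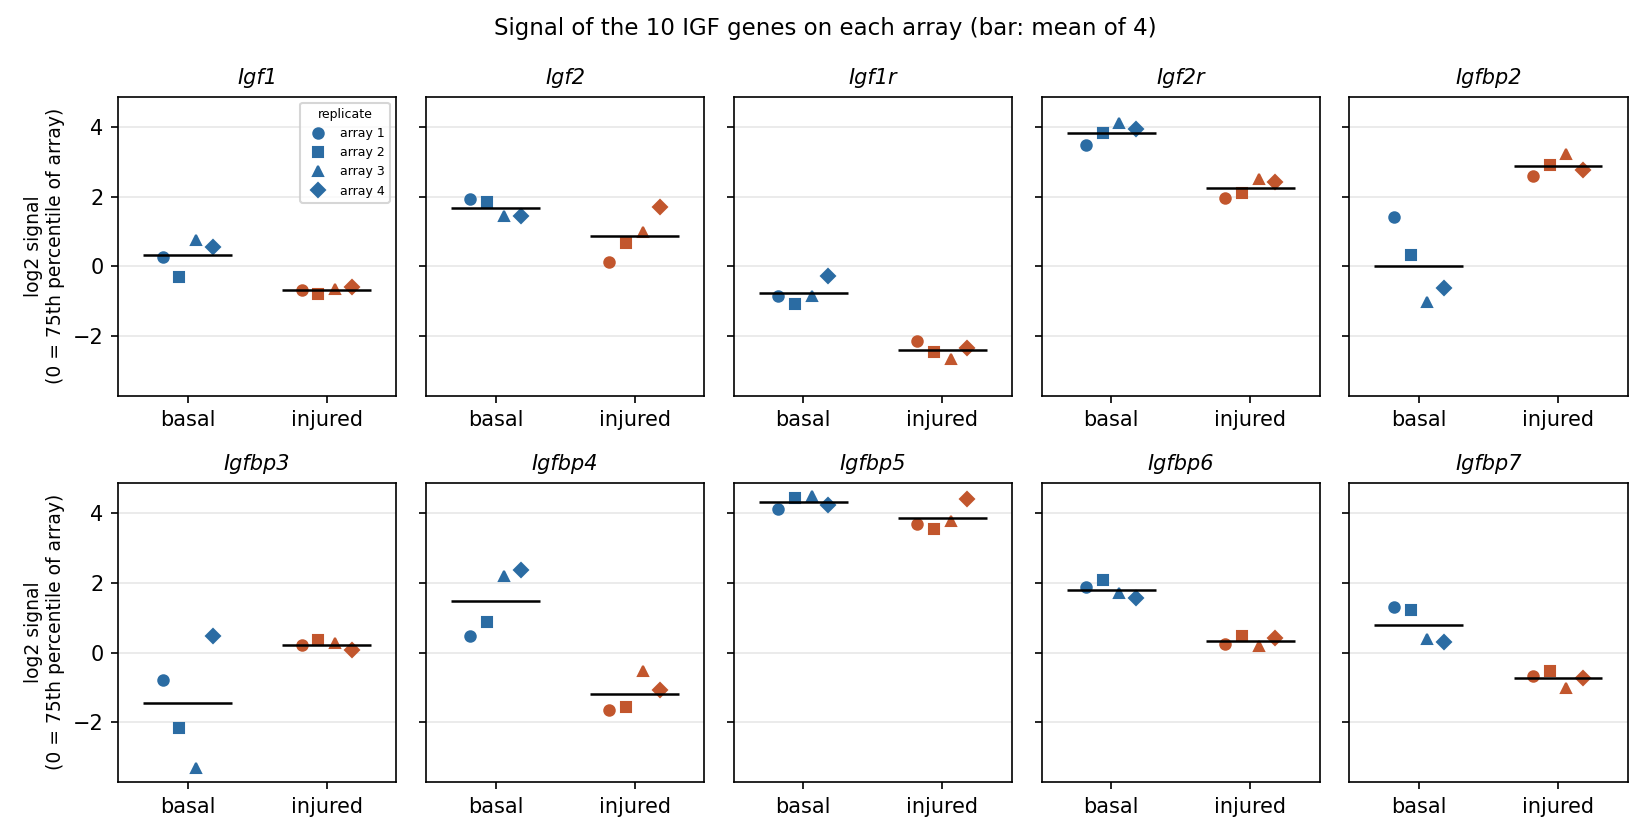
Log2 signal of each of the 10 genes on the 4 basal (blue) and 4 injured (orange) arrays, with 0 at the array's 75th percentile; symbols mark the replicate number and bars the mean of 4. The groups do not overlap for Igf1, Igf1r, Igf2r, Igfbp2, Igfbp4, Igfbp6 and Igfbp7, and they overlap for Igf2, Igfbp3 and Igfbp5.

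Of the ligands, Igf1 fell on every one of its 5 probes, by amounts that differed widely between probes. The probe that stands for the gene, by the rule of highest mean signal, lies at position 1027 of transcript variant 2 (chr10:87378456-87378515, build mm9). It read 0.27, -0.31, 0.75 and 0.54 on basal 1 to 4 and -0.67, -0.81, -0.65 and -0.61 on injured 1 to 4. All injured values lay below all basal values and within a narrow range. The difference was -1.0 ± 0.22 (SE, n = 4 per group), a 2-fold fall, with an adjusted p of 0.00422 in limma.

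The other 4 Igf1 probes lie in transcript variant 1. The probe at position 889 (chr10:87393561-87393620) read 1.83, 1.90, 2.52 and 2.40 on the basal arrays and -3.03, -3.30, -2.69 and -2.13 on the injured ones, a difference of -4.95 ± 0.28 or a 30.9-fold fall (adjusted p 8.3e-06 in limma over 31313 probes). Basal arrays 3 and 4 were the highest, and the groups were far apart. All 4 injured arrays counted as above background, but their signals were dim, and the size of the fall depends on how background is treated, as given below. The probe at position 909 (chr10:87393581-87393640), which shares part of its sequence with the one at 889 and is no separate measure, differed by -5.0 ± 0.38 (adjusted p 2.8e-05), with 2 of 4 injured arrays above background.

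At position 6909 (chr10:87399581-87399640) Igf1 signal was -0.77, -0.08, 0.01 and 0.35 on the basal arrays and -5.30, -4.95, -4.98 and -4.70 on the injured ones. No injured array was above background there, so the fall is given as a bound, at least 8.39-fold (adjusted p 5.4e-06). Such bounds set the bright group's mean against the dimmest signal counted as above background. The probe at position 3252 (chr10:87395924-87395983), between the others of variant 1, fell by only 1.45 ± 0.27, from -1.09, -0.89, -0.23 and 0.18 to -1.83, -2.07, -1.91 and -2.02 (adjusted p 0.00212). Its groups did not overlap either, and all 4 injured arrays were above background.

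Ranked by size among the 7869 probes called lower, the Igf1 probe at 889 was 145, while those at 3252 and 1027 were 3288 and 4770. The probes at 909 and 6909 are given no rank, since 2 and 4 of their injured arrays were not above background. Among all probes tested, 56.9% were called. With the mean of its 5 probes in place of the brightest one, Igf1 differed by -3.45 (adjusted p 1.0e-05), a mean that takes in the injured signals not above background. With normexp background correction, a model-based subtraction followed by an added offset, the probes at 889 and 909 fell by 2.92 and 2.69 and that at 3252 by 0.70. Without injured 2, 3 and 4, which leaves injured 1 alone in its group, the probes at 1027 (-0.98, adjusted p 0.198 over all probes) and 3252 (-1.33, 0.165) were not called, and those at 889 (-5.19, 0.00745), 909 (0.00577) and 6909 (0.0087) were, with the spread of the lone sample assumed equal to that of the basal group.

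**Figure D2:**
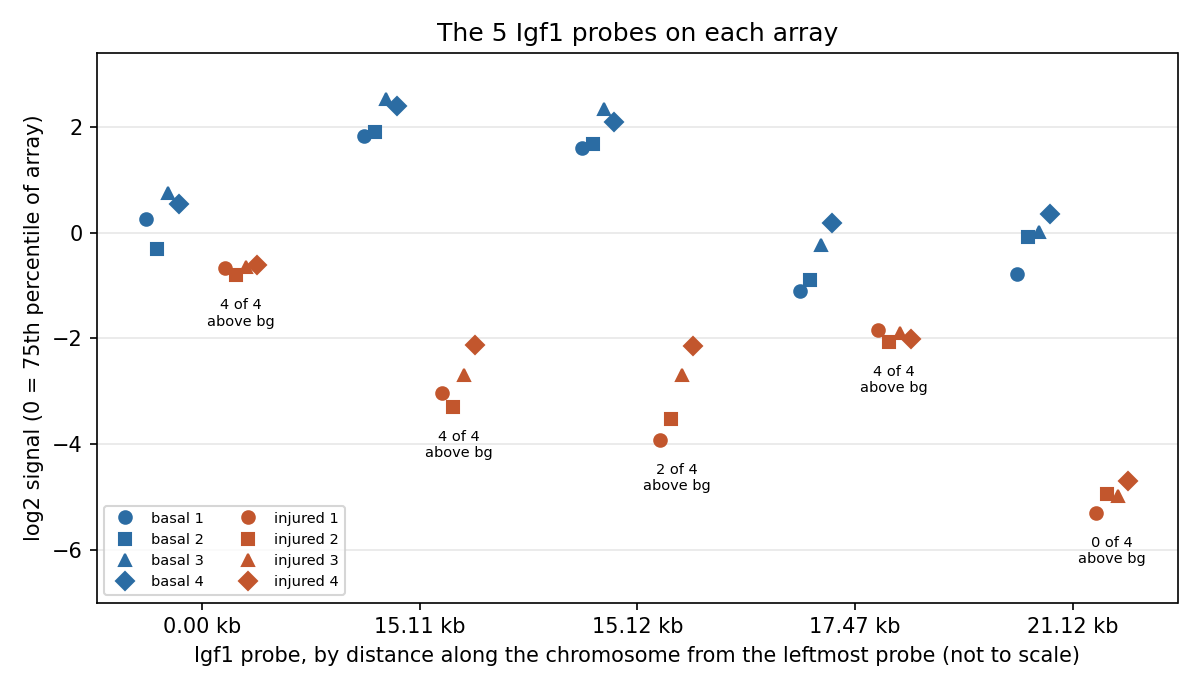
Log2 signal of the 5 Igf1 probes on each basal (blue) and injured (orange) array, ordered by distance along the chromosome from the probe at position 1027; the numbers under the injured points give how many of 4 arrays were above background. From left to right the probes are at transcript positions 1027, 889, 909, 3252 and 6909, and the differences were -1.0, -4.95, -5.0 and -1.45 on the log2 scale for the first 4, while the injured points of the last have only a bound, at least 8.39-fold lower.

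Igf2, the fetal growth factor that is expressed from the paternal allele, was lower by the mean but did not pass the test. Its 1 probe (position 990, chr7:149839661-149839720) read 1.93, 1.83, 1.46 and 1.45 on the basal arrays and 0.12, 0.66, 0.97 and 1.70 on the injured ones. Injured 4 lay within the basal range and the other injured arrays lay below it. The difference was -0.81 ± 0.31, with an adjusted p of 0.0512 in limma and an unadjusted 95% interval from -1.52 to -0.09. Without injured 4 it was -1.09 and was called (adjusted p 0.0069), and it was also called under each of the 4 other scalings of the scanner signals, between -0.93 and -0.59. Without basal 1 and 2 it was -0.59 and without injured 1 it was -0.56, and neither of these was called.

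Both receptor genes fell. Igf1r, the signalling receptor, read -0.85, -1.08, -0.84 and -0.29 on the basal arrays and -2.16, -2.45, -2.65 and -2.36 on the injured ones (position 11885, chr7:75378461-75378520). The groups were separated by more than their own ranges, but only 2 of 4 injured arrays were above background. The difference was -1.64 ± 0.19, a 3.12-fold fall (adjusted p 1.8e-04, limma). It was -0.58 with normexp at the same percentile, and without injured 2, 3 and 4 it was -1.39 and not called (adjusted p 0.0624).

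Igf2r was measured by a probe spotted 10 times (position 8733). The array files place it at chr17:12875253-12875263, an interval shorter than the probe, so its full location is not given here. It read 3.48, 3.83, 4.10 and 3.93 on the basal arrays and 1.96, 2.10, 2.49 and 2.43 on the injured ones. Every injured array was well below every basal one. The difference was -1.59 ± 0.18, a 3.01-fold fall (adjusted p 1.6e-04, limma), and it kept its direction and call in every alternative run, between -1.88 and -1.03.

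Of the binding proteins, Igfbp2 was the only one called higher and Igfbp4 fell the most by the estimate. Igfbp2 read 1.40, 0.32, -1.03 and -0.63 on the basal arrays and 2.60, 2.90, 3.22 and 2.77 on the injured ones (position 946, chr1:72898677-72898736). The injured arrays were all above the basal ones, which themselves ran from basal 1 as the highest to basal 3 as the lowest. The difference was 2.86 ± 0.48, a 7.27-fold rise (adjusted p 0.00106, limma), which ranked 247 among the 4835 genes called higher.

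The second Igfbp2 probe (position 1082, chr1:72898813-72898872) read 0.49, -0.48, -5.05 and -4.96 on the basal arrays and 1.95, 2.14, 2.46 and 2.11 on the injured ones. Among the basal arrays it was above background on 1 and 2, the libraries with the highest summed endothelial marker signal, and not on 3 and 4. A link between them was not tested. The difference was 4.66 ± 1.23 (adjusted p 0.0114). With normexp at the same percentile it was 2.40. Without basal 1 and 2 the difference of the probe at 946 was 3.71, and that of the probe at 1082 rests on basal arrays not above background and is not given. With injured 1 alone neither probe was called (2.59, adjusted p 0.116 for the probe at 946).

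Igfbp4, a binding protein known to inhibit IGF action until the protease PAPP-A cuts it, read 0.49, 0.87, 2.20 and 2.38 on the basal arrays (position 1442, chr11:98913334-98913393). Its injured values were -1.64, -1.56, -0.53 and -1.08. Here basal 3 and 4 were the high ones, the opposite order to Igfbp2, and the groups did not overlap. The difference was -2.69 ± 0.46, a 6.44-fold fall (adjusted p 0.00123, limma), rank 487 of the 3369 genes called lower. Without basal 1 and 2 it was -3.50, with normexp at the same percentile -1.77, and with injured 1 alone -3.12 and not called (adjusted p 0.0623).

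Igfbp6, which binds IGF2 with preference over IGF1, had groups with little spread. It read 1.88, 2.09, 1.70 and 1.56 on the basal arrays and 0.23, 0.48, 0.19 and 0.41 on the injured ones (position 1197, chr15:101979852-101979911). No value of one group came near the other. The difference was -1.48 ± 0.15, a 2.79-fold fall (adjusted p 9.1e-05, limma).

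Igfbp7, a secreted relative with low affinity for IGFs that is abundant in blood vessels, read 1.30, 1.21, 0.38 and 0.29 on the basal arrays and -0.68, -0.55, -1.0 and -0.74 on the injured ones (position 1147, chr5:77778271-77778330). Basal 1 and 2, which had the highest summed signal of endothelial markers, were also the highest for Igfbp7, and the groups did not overlap. The endothelial marker Tek was higher on basal 3 and 4, and a link of Igfbp7 to endothelial signal was not tested. The difference was -1.54 ± 0.26, a 2.90-fold fall (adjusted p 0.00108, limma), without basal 1 and 2 it was -1.08 (adjusted p 0.0011), and with normexp at the same percentile it was -1.0. With injured 1 alone it was -1.47 and not called (adjusted p 0.106).

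Igfbp5, a binding protein known for its part in muscle differentiation, read 4.12, 4.44, 4.48 and 4.22 on the basal arrays and 3.70, 3.54, 3.77 and 4.42 on the injured ones (position 5604, chr1:72904829-72904888). As for Igf2, injured 4 lay within the basal range and the other injured arrays below it. The difference was -0.46 ± 0.20, which did not pass the test (adjusted p 0.081, limma), with an unadjusted 95% interval from -0.92 to 0.01. Without injured 4 it was -0.65 and called (adjusted p 0.00843), and the 4 other scalings of the scanner signals also called it, between -0.89 and -0.54. Without injured 2 it was -0.35 and not called.

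Igfbp3, the main carrier of IGFs in blood, read -0.79, -2.16, -3.33 and 0.47 on the basal arrays and 0.22, 0.35, 0.27 and 0.06 on the injured ones (position 1882, chr11:7106594-7106653). The injured arrays were close together, while the basal ones were spread widely, with basal 4 above all injured arrays. The difference of 1.68 ± 0.70 did not pass the test (adjusted p 0.0657, limma), with an unadjusted 95% interval from 0.08 to 3.27. Without basal 4 it was 2.32 and called (adjusted p 0.00651), without basal 3 it was 1.05 and not called, and with normexp at the same percentile it was 0.73.

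**Figure D3:**
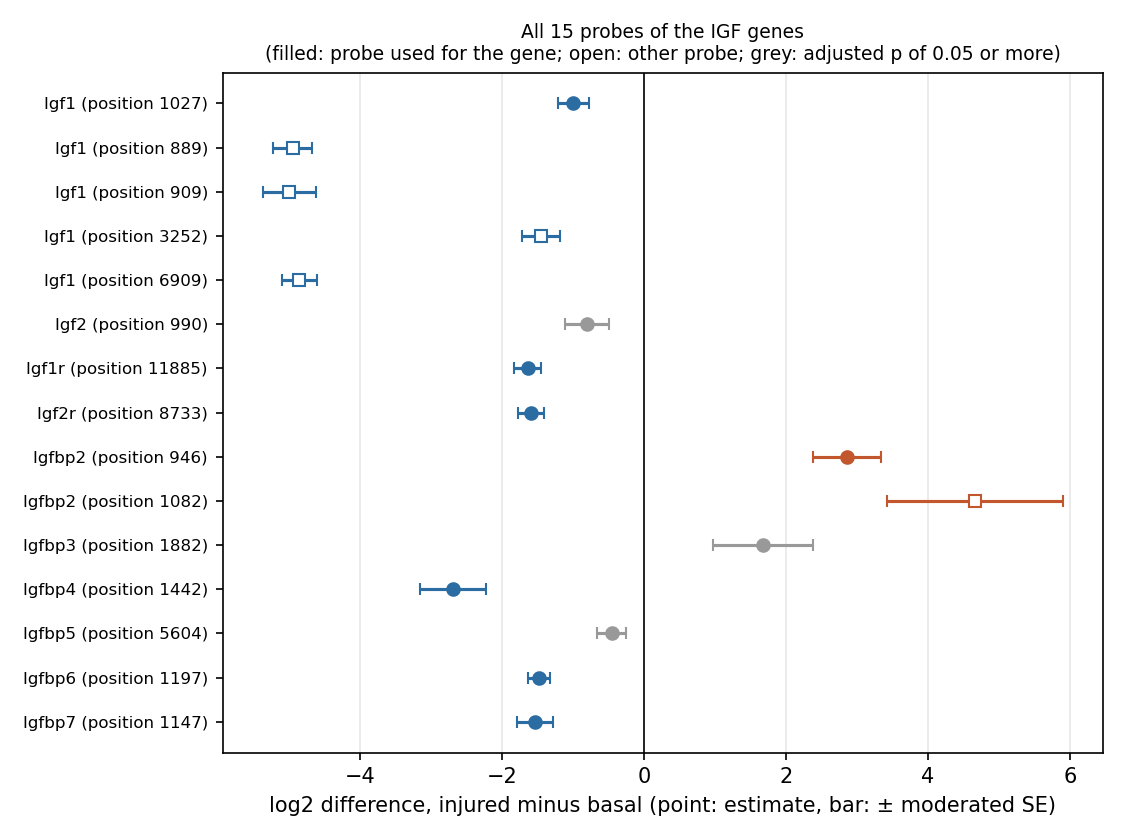
Log2 difference, injured minus basal, of all 15 probes of the 10 genes, with the moderated standard error as a bar; filled points are the probe that stands for the gene, open points other probes, and grey an adjusted p of 0.05 or more. The Igf1 probes lie below 0 (the point for 6909 is set against injured signals not above background and its size is not measured), both Igfbp2 probes lie above 0, and Igf2, Igfbp3 and Igfbp5 are grey.

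The adjacent genes Igfbp2 and Igfbp5 can be set side by side as a change within each array. Igfbp2 minus Igfbp5 was -2.72, -4.12, -5.52 and -4.85 on the basal arrays and -1.10, -0.64, -0.54 and -1.65 on the injured ones. The injured differences were all closer to 0 than the basal ones. Since each value sets different probes against each other, only its change between arrays can be read, not its level.

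In the authors' deposited table of normalized log2 values, analysed by the same limma fit, several of these genes came out otherwise. There Igfbp2 and Igfbp3 (2.28, adjusted p 0.00994) were called higher, and 2 genes, Igf2r and Igfbp4, lower. The difference was positive and not called for Igf2 (0.70, adjusted p 0.422), Igf1r (0.36, 0.53), Igfbp5 (0.09, 0.857) and Igfbp6 (0.14, 0.863). Igf1 (-1.92, 0.0624) and Igfbp7 (-0.43, 0.679) kept their direction and were not called. The Igf1 probes at 889 (-3.0, 0.00111), 909 (-2.67, 0.00118) and 6909 (adjusted p 0.025) were called lower there too, and the probe at 3252 was not (-0.54, 0.358). Over the 23371 probes that every array measured above background, each column of the deposited table was set against the scanner values of its own array, with r from 0.704 to 0.929. The columns of injured 1 and injured 4 matched the scanner values of injured 2 best. How that table was made is not given in the sources used here.

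Around the 10 genes, 10 others belong to the IGF and insulin family or to the imprinted loci. Of these, 6 were tested, with 2 called higher, 3 lower and a median of -0.60. This count and those of the lists that follow stand against 35.4% higher and 24.7% lower over all genes tested, and nothing particular to a list is read from them. H19, the maternally expressed RNA next to Igf2 with 1 gene between them in the RefSeq table, was 6.72, 5.55, 5.09 and 3.98 on the basal arrays and 6.54, 6.91, 7.58 and 7.40 on the injured ones. Only basal 1 reached into the injured range, and the difference was 1.77 ± 0.52 (adjusted p 0.0173, limma), while Igf2 itself was not called. Airn, the RNA that overlaps Igf2r and silences its paternal copy, was 4.45, 4.96, 5.0 and 4.86 on the basal arrays and 1.90, 1.98, 2.25 and 2.47 on the injured ones. It fell by 2.66 ± 0.18 (adjusted p 1.5e-05), in the same direction as Igf2r. Igf2os, a transcript that overlaps Igf2, fell by 1.39 ± 0.17 (adjusted p 1.9e-04). The labels do not state that labelling kept the strand. Where a probe lies in a stretch that 2 overlapping genes share, its signal therefore cannot be assigned to either gene. The insulin receptor gene Insr fell by 0.82 ± 0.21 (0.00961), and the insulin gene Ins2, next to Igf2, rose by 0.48 ± 0.11 (0.00493). Igfbp1 and Igfbpl1 were above background on no array.

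Of 8 genes whose products cut binding proteins or curb that cutting, 5 were tested, with 2 called higher and 1 lower and a median of 0.35. Htra1, a secreted serine protease that cuts IGFBPs, read -0.21, -0.54, -0.01 and 0.37 on the basal arrays and -2.42, -2.95, -3.09 and -2.77 on the injured ones, of which 1 was above background. It fell by 2.71 ± 0.22 (adjusted p 3.6e-05, limma). Stc2, an inhibitor of PAPP-A, rose by 1.53 ± 0.43 (0.0137), with 1 basal array above background. Pappa, which encodes PAPP-A itself, rose by 0.56 ± 0.19 (0.0321), with groups that overlapped and a call that ended in several alternatives, such as 0.48 without basal 1 (0.0691).

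Regulators of Igf2 RNA went both ways, with 3 of 6 tested called higher, 2 lower and a median of 0.52. Hmga2, a chromatin protein that raises Igf2bp2 expression, read 0.58, -1.39, -4.08 and -3.48 on the basal arrays and 3.22, 3.09, 2.36 and 2.18 on the injured ones. It rose by 4.81 ± 0.92 (adjusted p 0.00212, limma), with 2 basal arrays above background, and Igf2bp2, which encodes an IGF2 mRNA-binding protein, rose by 1.08 ± 0.23 (0.00346). Igf2bp3 of the same family was above background on no injured array and was at least 3.82-fold lower (3.6e-05). Plagl1, an imprinted zinc finger factor, fell by 1.16 ± 0.27 (0.00576), and Ctcf, whose protein binds the control region between Igf2 and H19, was at least 1.84-fold higher (0.00415). Of the 4 Plagl1 probes, 3 were called lower, with differences from -1.26 to -0.22 over all 4.

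The machinery that works with the IGF2 receptor in sorting lysosomal enzymes was called in both directions. Of 9 genes tested, 4 were called higher and 2 lower, with a median of 0.19. The lysosomal protease genes Ctsl and Ctsd rose by 1.89 ± 0.26 and 0.77 ± 0.13, the adaptor gene Gga2 by 1.39 ± 0.16, and M6pr, the other mannose 6-phosphate receptor, by 0.72 ± 0.22 (adjusted p 0.0215, limma), a call that ended under quantile normalization (0.0799). The other Ctsd probe differed by 0.25 and was not called. Gnptg and Gnptab, subunits of the enzyme that makes the mannose 6-phosphate tag, fell by 1.43 ± 0.18 and 0.45 ± 0.13.

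Of 29 tested genes that act below the IGF1 receptor, 8 were called higher, 8 lower and 13 not, with a median of -0.07. That share of calls is near the 60.1% of all genes tested. Foxo1, the forkhead factor that AKT shuts out of the nucleus, read 4.85, 5.66, 4.88 and 4.86 on the basal arrays and -0.04, 0.02, 0.49 and 0.82 on the injured ones. It fell 26.8-fold, by 4.74 ± 0.26 (adjusted p 5.9e-06, limma), and its relative Foxo3 fell by 2.99 ± 0.25 (3.8e-05). Irs2, an adaptor of the insulin and IGF1 receptors, was 5.24, 5.53, 4.79 and 4.36 on the basal arrays and 2.69, 2.53, 2.66 and 2.46 on the injured ones, a fall of 2.39 ± 0.24 (8.5e-05). Pik3r1, the regulatory subunit of phosphoinositide 3-kinase, fell by 2.95 ± 0.58 (0.0024), with 1 injured array above background. The kinase gene Akt1 was 2.47, 2.19, 1.52 and 1.43 on the basal arrays and 3.53, 3.53, 3.38 and 3.18 on the injured ones. It rose by 1.50 ± 0.25 (9.3e-04), the translation repressor gene Eif4ebp1 by 1.48 ± 0.28 (0.00194) and Rptor, the scaffold of mTOR complex 1, by 1.33 ± 0.13 (7.9e-05). Irs4, another such adaptor, was at least 1.61-fold higher (0.00124) and was not called with normexp at the same percentile (0.132).  Over the 5 lists, 27 called genes are named, of which 18 were not called without injured 2, 3 and 4, and 10 kept their direction but not their call and 4 were reversed in the authors' deposited table.

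**Figure D4:**
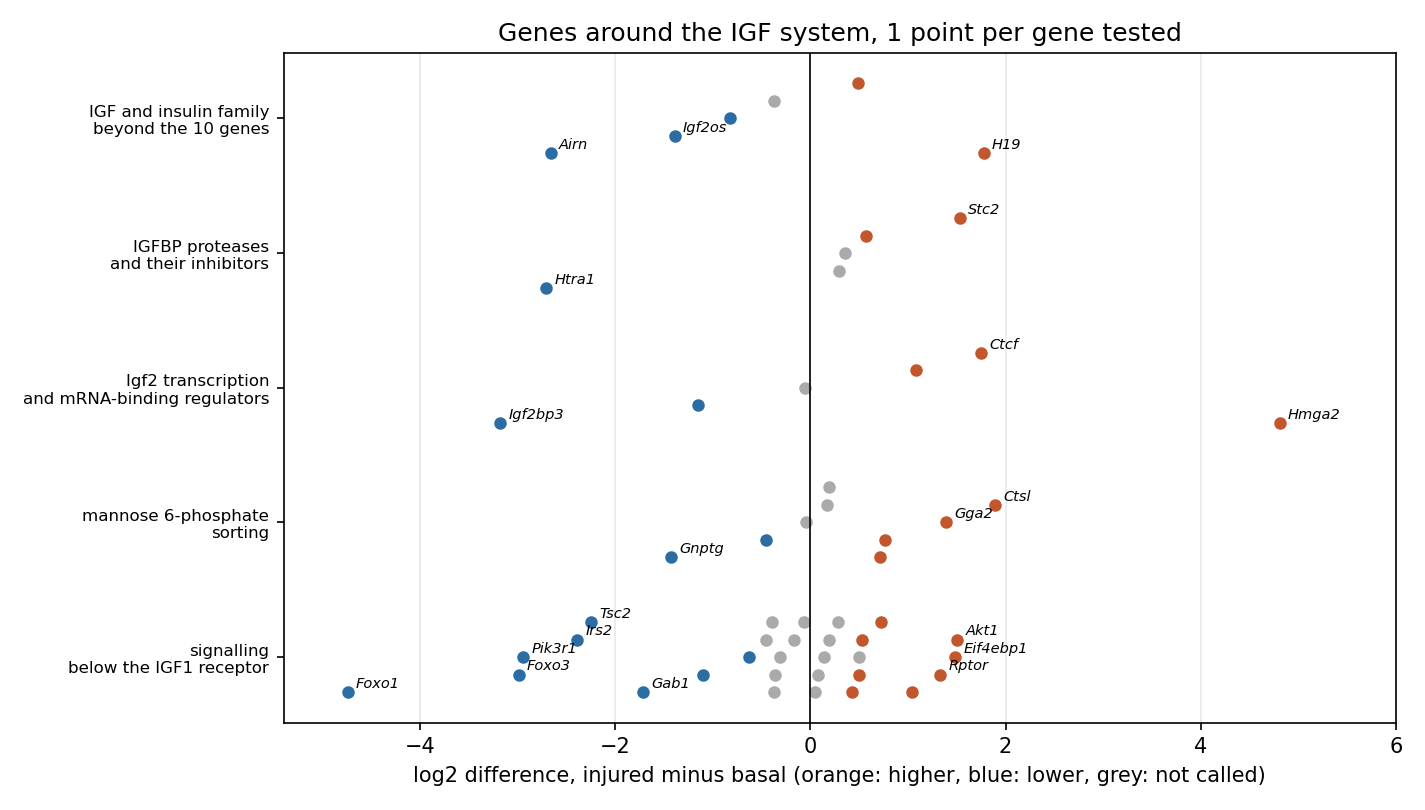
Log2 difference, injured minus basal, of each tested gene in the 5 lists around the IGF system, with 1 point per gene (orange called higher, blue called lower, grey not called). Foxo1 at -4.74 and Hmga2 at 4.81 are the outermost points, and each list holds genes on both sides of 0; the points of Igf2bp3, Ctcf and Irs4 are set against a group above background on no array, so their sizes are not measured.

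Genes whose pattern over the 8 arrays was most like that of a member were ranked by the root mean square difference after each gene's own mean was subtracted. The closest to Igf1 was Pabpc6 (0.109), to Igf1r Atp13a2 (0.105), to Igf2r Ube2l6 (0.096) and to Igfbp6 Golim4 (0.107). The closest to Igfbp2 was Cks2 (0.19), to Igfbp4 Mr1 (0.214), to Igf2 Erdr1 (0.217), to Igfbp7 Stk40 (0.154) and to Igfbp5 1700024G13Rik (0.143). Igfbp3 had no gene closer than Slc26a2 (0.402). None of the 10 genes was among the 3 closest to another.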

How the data were processed

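Per the file headers, the scanner files hold spot brightness in intensity units, read by the authors with the Agilent software Feature Extraction, version 10.7.3.1, background-subtracted and with no normalization between arrays. The authors' deposited table holds normalized values on a log2 scale, with column medians of 8.02; it served as an alternative only. Probes carry the mm9 coordinates written in the scanner files; exon and UTR annotation of that build was not used here.

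From the log2 of each processed signal, the array's 75th percentile over non-control spots was taken off. Spots marked uneven or as outliers (1119) were dropped, and spots of 1 probe were averaged. The brightest probe by mean over the 8 arrays stood for a gene. Genes well above background on at least 3 of 4 arrays of a group were tested with limma 3.58.1 in R 4.3.3 (moderated, two-sided, 6 residual and 2.56 prior degrees of freedom), with Benjamini-Hochberg adjustment and a threshold of 0.05. The script was tested on simulated data. The data.table package (version 1.17.8) read the files. Unadjusted p was under 0.05 for 8804 genes; 4835 were called higher and 3369 lower. A gene below background on every array of a group has a bound on its fold.

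The members and lists were chosen with earlier results of these data known. Named genes are all 10 members, up to 4 called genes per direction of each list with the largest difference, markers, and the closest patterns. Alternatives were quantile normalization, normexp (offset 50) with quantile or 75th percentile scaling, median scaling over probes detected everywhere, the authors' table, no filter, a filter on all arrays, averaging a gene's probes, array weights, limma with trend and robust variance, the replicate block, each array left out in turn, and 2 sets of libraries left out. Fits of single probes under these settings were added after seeing the data. P-values measure the spread between these samples only.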

Additional observations from a re-analysis of the deposited data

How the results depend on the processing

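All 10 members kept their direction in the settings run on the scanner signals, and the 7 called genes kept their calls in each fit that left out 1 array. With injured 1 alone in its group, 774 genes were called higher and 1000 lower, 0 of the 10 members higher and 3 lower; Igf1 (-0.98), Igf1r (-1.39), Igfbp2 (2.59), Igfbp4 (-3.12) and Igfbp7 (-1.47) were no longer called and Igf2 was (-1.55). In the authors' deposited table, 3300 genes were called higher and 767 lower, 2 members higher and 2 lower. There Igf1 (-1.92) and Igfbp7 (-0.43) lost their calls, Igfbp3 (2.28) gained one, and Igf2 (0.70), Igf1r (0.36), Igfbp5 (0.094) and Igfbp6 (0.14) were reversed, as were Ins2 (-1.73), Stc2 (-1.05), Ctsd (-1.11), Gnptab (0.74) and the markers Vcam1 (0.13), Csf1r (0.51), Tyrobp (-1.43) and Mb (0.042); the cause was not tested. The mean of all probes reversed Kdr (-1.06) and Csf1r (0.14), and leaving out basal 1 and 2 reversed Egfl7 (2.42).

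Igf2 was called under quantile normalization (-0.93), normexp with quantile (-0.68) or percentile scaling (-0.59), scaling to the median (-0.89), the filter on all arrays (-0.81, adjusted p 0.0393) and the trend and robust options (-0.81, 0.0395). Igfbp5 was called under those 4 scalings (-0.78, -0.89, -0.59 and -0.54) and with array weights (-0.59). Igfbp3 was called with array weights (1.79), which gave 2 members called higher, as did leaving out basal 4. Over the fits that left out 1 array, Igf2 ranged from -1.09 to -0.56, Igfbp3 from 1.05 to 2.32 and Igfbp5 from -0.65 to -0.35, and 1 to 2 members were called higher. The filter on all arrays left out Igf1r and Igfbp3.

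With the replicate block, 4576 genes were called higher and 3185 lower, with 1 member higher and 6 lower, and no call of a member changed. The same-numbered samples did not deviate together (r of -0.004, 0.037, 0.002 and 0.095), so the numbers were not taken as pairs. The planned fit with slide as a block was not run, because neither of the 2 slides held both groups. The median of all genes was 0.17, 0.07 to 0.14 under the other scalings and 0.47 in the authors' table. Dim signal limits Igf1r, Igfbp3, Htra1, Pik3r1, Stc2, Hmga2, the Igf1 probes at 889, 909 and 6909 and the Igfbp2 probe at 1082. With normexp at the same percentile the log2 differences of Igf1r (-0.58), Igfbp3 (0.73), Igfbp4 (-1.77) and Igfbp7 (-1.0) were smaller. So were those of the Igfbp2 probe at 1082 (2.40) and the Igf1 probes at 889, 909 and 3252. The same held for Igf1 at 1027 (-0.67), Igfbp2 at 946 (2.29), Igf2 (-0.59), Igf2r (-1.475) and Igfbp6 (-1.16), while that of Igfbp5 (-0.59) was larger.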
